A study of Mus musculus with 2 samples.

Results

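The comparison described here set immune cells from the tumours of mice given both a HMGN1-derived peptide, minP1, and an antibody against PD-L1 beside immune cells from untreated mice. Of 8115 single-cell columns assigned to 14 mice, 7732 had at most 25% of their reads on mitochondrial genes. Columns with Ptprc, the gene for the leukocyte antigen CD45, under 2 reads per 10000 (CP10k) that also carried Mgp or Sparc, 2 extracellular matrix genes, at 2 CP10k or more were dropped. This removed 424 columns and left 7308 immune cells, of which 3513 belonged to the comparison. The 3 Control mice gave 425, 603 and 457 cells and the 4 minP1_PDL1 mice gave 510, 510, 477 and 531. Reads of each gene were summed over the cells of a mouse, and the mouse was the replicate.

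All mice were wild-type BALB/c animals with a Colon26 tumour, a transplanted mouse colon carcinoma line, growing under the skin of the right flank. The labels call the cells intestinal, although the tumour did not grow in the intestine. The minP1_PDL1 mice received the antibody (clone 10F.9G2, 200 µg into the peritoneum on days 4 and 8) and the peptide (0.08 µg by the same route on day 9), and tumours were taken on day 10. Control mice received neither, and the labels name no vehicle or isotype antibody. The other groups, minP1 (4 mice) and PDL1 (3 mice), received 1 agent each and shared the estimate of spread. CD45+ cells were taken after digestion and density separation against tumour and dead cells, and all 14 mice were hashtagged and read in 1 library, so no sequencing batch separates the groups. The labels give no cage, litter or sex.

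HMGN1 is a nucleosome-binding protein that, outside the cell, acts as an alarmin: it signals through the receptor TLR4 and activates dendritic cells. PD-L1, encoded by Cd274, is carried by tumour and myeloid cells and restrains T cells through the receptor PD-1, encoded by Pdcd1. Blocking this pair frees T cell activity, and interferon gamma made by active T and NK cells raises PD-L1 and class II antigen presentation on myeloid cells. Neutrophils, monocytes and macrophages make up much of the leukocyte infiltrate of transplanted colon tumours.

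The kept cells of the 7 mice held 24433414 to 43035736 reads per mouse, with medians of 29999 to 41670 reads and 1780 to 2201 detected genes per cell. Reads are not collapsed to molecules. The median mitochondrial share was 5.50% in Control and 5.15% in minP1_PDL1 mice (two-sided exact permutation p = 0.0571). Ptprc was under 2 CP10k in 9.29 to 12.04% of kept Control cells and 12.1 to 17.0% of kept minP1_PDL1 cells. No cell barcode occurred in more than 1 mouse. On the edges of the rule, 54 dropped columns had Mgp and Sparc both under 4 CP10k, and 19 kept columns with Ptprc from 2 to under 4 CP10k carried Mgp or Sparc at 2 CP10k or more.

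The first minP1_PDL1 mouse stood apart in several measures. Its NK share was 12.9%, and its Arg1 level 3203 CPM against 303.2 to 1535 CPM in the other 6 mice. Its 4 platelet markers summed to 623 CPM against 33.7 to 240 CPM. Arg1 and the platelet marker Pf4 were also leading genes of a macrophage cluster, as named below. That cluster held 55.6% of this mouse's monocytes and macrophages and 15.3 to 35.8% in the other 6 mice. The part of this cluster in the Arg1 and platelet marker levels was not tested.

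The rule took 12.2%, 6.80% and 8.78% of the columns of the 3 Control mice. It took 8.44%, 3.23%, 2.05% and 3.28% from the 4 minP1_PDL1 mice. The means were 9.26% ± 2.73 (SD, n = 3) and 4.25% ± 2.85 (SD, n = 4), and the two-sided exact permutation test gave p = 0.0857, where 0.0286 is the smallest value this design allows. With every column left in, 9 fibroblast and matrix genes such as Col1a2 summed to 734 to 899 CPM (counts scaled to a common library size) in Control and 202 to 581 CPM in minP1_PDL1 mice. After the rule the sums were 51.8, 202 and 88.5 CPM in Control and 36.8, 21.9, 46.7 and 40.4 CPM in minP1_PDL1. Clusters led by fibroblast or epithelial markers (91 and 42 cells over all mice) remained among the kept cells, and without them the sums overlapped at 8.06 to 14.95 CPM and 9.37 to 14.2 CPM. The 9 genes include Mgp and Sparc, which the rule itself used, so these sums describe what the rule took and left and are no test. Col1a2, which the rule did not use, read 13.9 to 29.4 CPM in Control and 5.45 to 12.6 CPM in minP1_PDL1 mice after the rule. Without those clusters it read 0.834 to 3.07 CPM and 1.04 to 4.51 CPM. Ogn, which the rule did not use either, overlapped after the rule. It read 0.614, 13.8 and 3.21 CPM in Control and 9.38, 0.586, 6.22 and 2.66 CPM in minP1_PDL1 mice. The cluster led by fibroblast markers held 1.72% of Control and 1.76% of minP1_PDL1 immune cells in the mean.

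The kept cells were clustered and named from lists of markers. Names such as "neutrophils" below stand for neutrophil-like clusters and the like, since the names are rebuilt from the data. Neutrophils made up 3.06%, 3.81% and 5.47% of the immune cells of Control mice. In minP1_PDL1 mice they made up 13.7%, 6.67%, 10.5% and 10.4%. Every treated mouse lay above every Control mouse, and the mean share was 2.51-fold higher, at 10.3% ± 2.89 (SD, n = 4) against 4.11% ± 1.23 (SD, n = 3). The two-sided exact permutation test gave p = 0.0571, or 0.371 after Benjamini-Hochberg adjustment over 13 classes, so the difference did not pass. With 18 neutrophil marker genes left out of the clustering, which was tried after the data were seen, the means were 3.25% ± 1.19 and 9.27% ± 2.32 and the groups again did not overlap. Reads from neutrophils were 5.27% of all reads in minP1_PDL1 and 3.69% in Control mice in the mean. These read shares overlapped, at 2.50%, 3.98% and 4.58% in Control and 7.12%, 2.99%, 5.49% and 5.46% in minP1_PDL1 mice.

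T cells formed 27.5% ± 3.96 (SD, n = 3) of Control and 23.1% ± 4.01 (SD, n = 4) of minP1_PDL1 immune cells. NK cells formed 19.8% ± 2.88 and 17.6% ± 3.15 of the same cells. Monocytes and macrophages stood at 34.0% ± 6.04 and 33.1% ± 4.09, and dendritic cells at 6.54% ± 0.064 and 7.02% ± 0.963. The lymphocyte, macrophage and dendritic shares overlapped between the groups, and none of the 13 classes passed after adjustment. A small unnamed cluster led by Ctsk, Mmp9 and Acp5, genes of bone-resorbing macrophages, reached the smallest p the design allows (0.0286) and an adjusted p of 0.371 by the same exact permutation test, at 0.497% of Control and 0.198% of minP1_PDL1 cells. It held 4, 2 and 1 cells in the Control mice and 1 cell in each treated mouse, and with a mitochondrial limit of 10% its exact permutation p was 0.314.

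**Figure D1:**
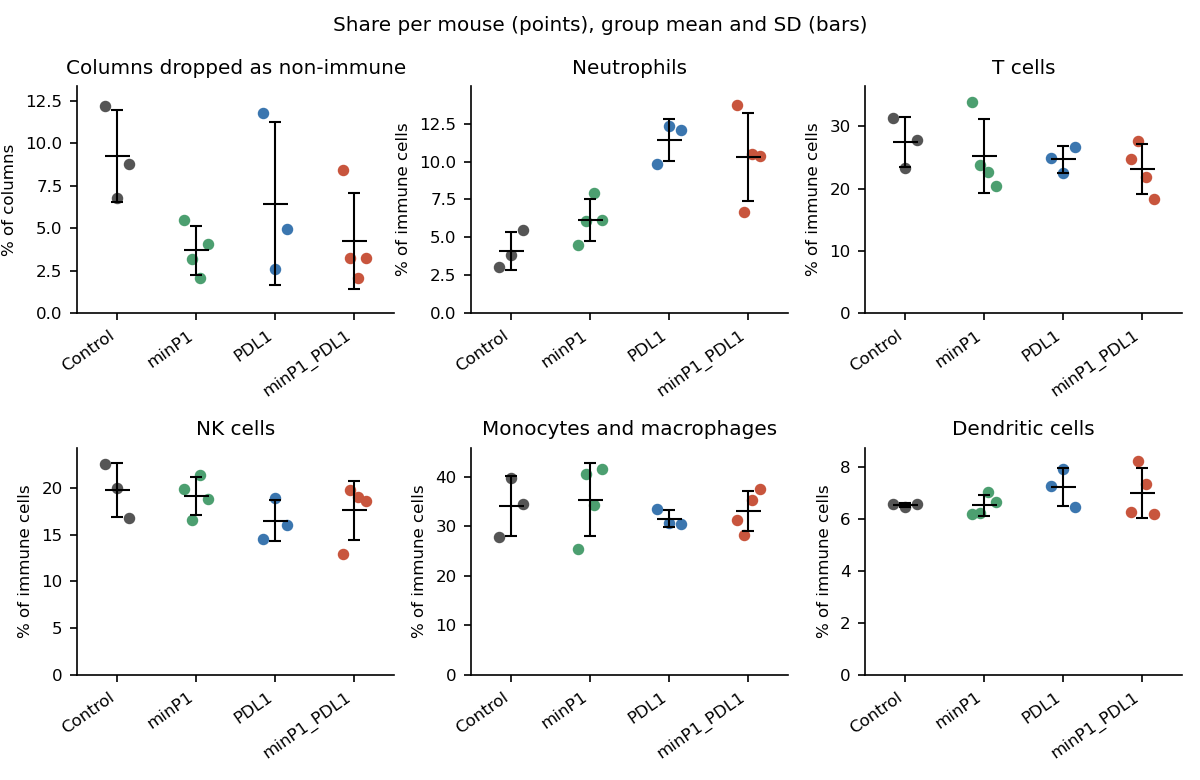
Share of columns dropped by the rule (percent of columns within the mitochondrial limit) and shares of 5 cell classes (percent of kept immune cells), 1 point per mouse in the 4 groups, with bars for the mean and the SD. The neutrophil points of the 4 minP1_PDL1 mice lie between 6.67% and 13.7% and those of the 3 Control mice between 3.06% and 5.47%, while the other cell classes overlap.

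Across all immune cells, no gene passed the test between minP1_PDL1 and Control. Of 17790 genes, 0 (0%) had an adjusted p under 0.05 in edgeR's quasi-likelihood test with Benjamini-Hochberg adjustment, and 1356 had an unadjusted p under 0.05, 664 of them higher and 692 lower with both agents. DESeq2 on the same sums, without edgeR's filter on low counts, called 85 of 22679 genes with a p-value, 48 higher and 37 lower. Without that filter edgeR called 0 of 22811 genes. With every cell weighted equally, limma called 27 of 9298 genes, all higher. The 4 treated mice lay above the 3 Control mice for 621 genes (3.49%) and below them for 708 (3.98%). Nothing below is called in this set, and values are given as levels in CPM normalised by the trimmed mean of M values, with the difference on the log2 scale and its standard error. In such sums, more cells of a type and more RNA per cell cannot be told apart.

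S100a9 and S100a8, the calprotectin subunits abundant in neutrophils, were among the genes of smallest p. S100a9 (chromosome 3, 90692632 to 90695721 in GRCm38) stood at 258, 223 and 296 CPM in Control and 708, 452, 849 and 658 CPM in minP1_PDL1 mice. Every treated mouse was above every Control mouse, with a log2 difference of 1.37 (SE 0.21) and an adjusted p of 0.139 in edgeR. S100a8 read 138, 146 and 295 CPM in Control and 570, 402, 570 and 457 CPM in minP1_PDL1 mice, a log2 difference of 1.37 (SE 0.27, edgeR adjusted p = 0.355). The neutrophil share differed in the same direction, and without the neutrophil class the log2 difference was 0.45 for S100a9 and 0.97 for S100a8. Without cells of doublet score over 0.5 it was 2.31 for S100a9 and 2.57 for S100a8. Of the 18 neutrophil markers tested, 15 were higher and 3 lower with both agents. For 7 of the 18 the treated mice lay higher without overlap, where 3.49% of all genes did. The median log2 difference of the markers was 0.83 against 0.0042 over all genes. It was 0.35 over 17 markers without the neutrophil class and 1.49 without cells of doublet score over 0.5. Cxcr2, the receptor through which neutrophils follow chemokines, read 37.8, 27.5 and 46.7 CPM in Control and 67.2, 66.0, 92.4 and 57.5 CPM in minP1_PDL1 mice, and its log2 difference of 0.92 was 0.22 without that class.

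Slc7a11, the cystine importer that feeds glutathione synthesis, had the second smallest p among higher genes. It stood at 20.4, 21.8 and 22.2 CPM in Control and 51.9, 47.5, 51.3 and 52.0 CPM in minP1_PDL1 mice. The groups were tight and far apart, with a log2 difference of 1.24 (SE 0.20, edgeR adjusted p = 0.139), and 0.93 without the neutrophil class. Slc48a1, a heme transporter of the lysosome, read 22.4, 32.8 and 31.3 CPM in Control and 60.6, 44.1, 50.95 and 64.6 CPM in minP1_PDL1 mice. Its log2 difference was 0.93 (SE 0.16, edgeR adjusted p = 0.139) and kept its size without neutrophils (0.92), but was 0.42 over cells with a doublet score of at most 0.5. Wbp1l stood at 22.8 to 26.4 CPM in Control and 34.4 to 37.2 CPM in minP1_PDL1 mice, 0.56 higher on the log2 scale (SE 0.10). Shf, which encodes an SH2 domain adaptor, was low in every mouse, at 0.569 to 0.912 CPM and 3.03 to 3.26 CPM, and Fcor was lower still in Control (0.0714 to 0.561 CPM against 2.31 to 4.95 CPM).

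Among the genes of smallest p that were lower with both agents, Mcm3, a subunit of the helicase that opens DNA for replication, read 102, 88.3 and 90.1 CPM in Control. It read 59.7, 69.1, 55.1 and 61.9 CPM in minP1_PDL1 mice, a log2 difference of -0.60 (SE 0.10, edgeR adjusted p = 0.139) without overlap. The ribosomal protein genes Rpl31, Rps12 and Rpl32, differed by -0.23, -0.16 and -0.18 on the log2 scale, small shifts with groups that did not overlap. Sae1, a subunit of the enzyme that activates SUMO, read 77.9 to 96.6 CPM against 54.8 to 63.8 CPM (log2 -0.56), Pxdc1 12.9 to 20.4 CPM against 4.15 to 8.26 CPM (log2 -1.18), and 2010111I01Rik 46.1 to 50.3 CPM against 32.8 to 35.5 CPM (log2 -0.48). Col5a2, a collagen gene, held 25, 189 and 20 reads in 2, 1 and 1 cells of the Control mice and 0, 1, 0 and 0 reads in minP1_PDL1 mice, so this difference rests on 4 cells.

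**Figure D2:**
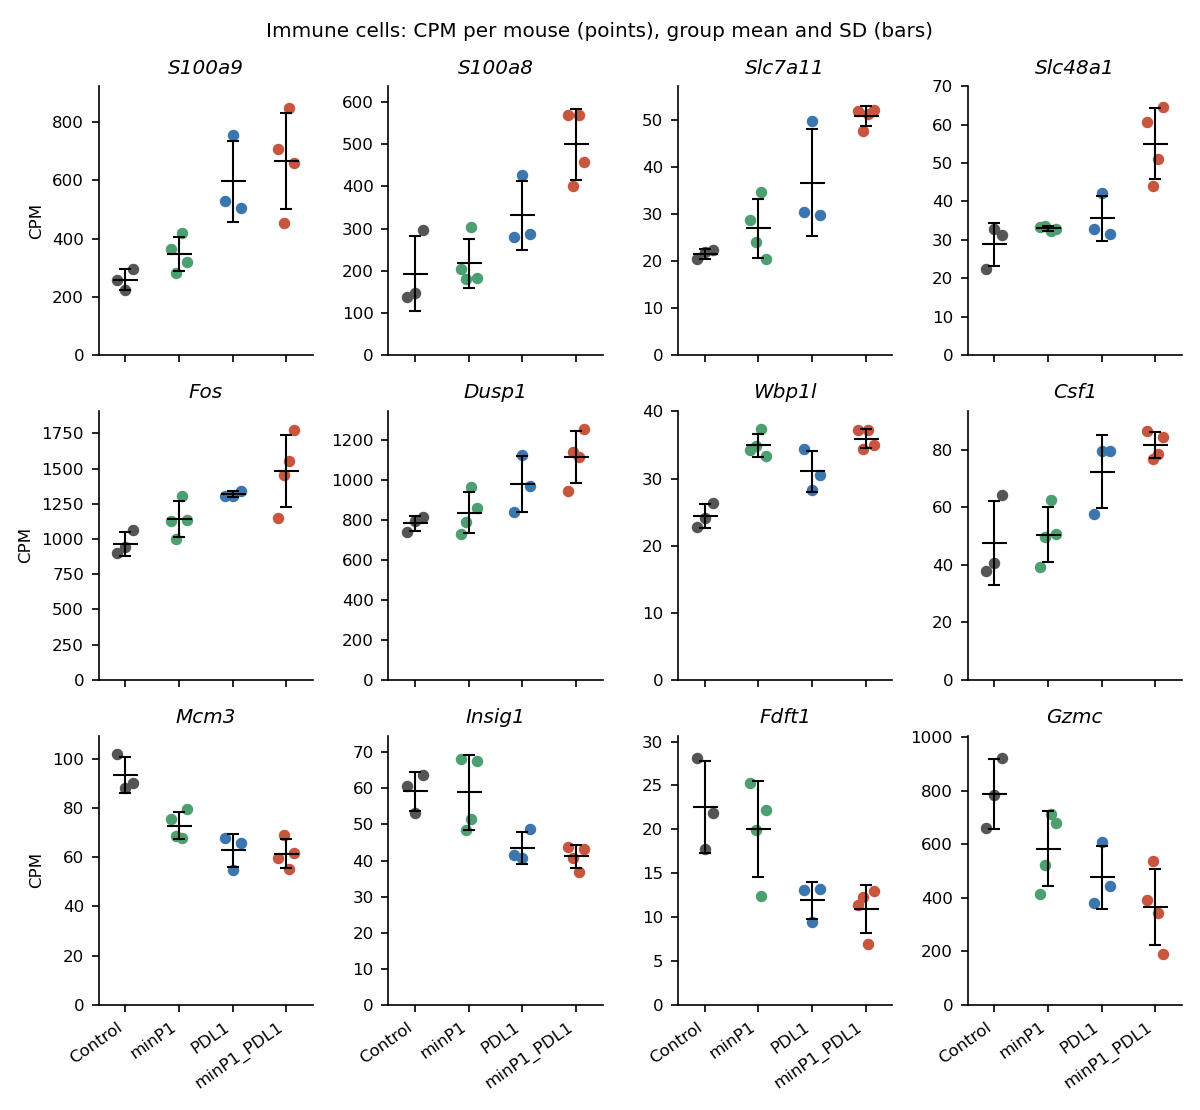
Level of 12 genes in summed immune cells (CPM, normalised by the trimmed mean of M values), 1 point per mouse in the 4 groups, with bars for the mean and the SD. S100a9, S100a8, Slc7a11, Slc48a1, Fos, Dusp1, Wbp1l and Csf1 lie higher in all 4 minP1_PDL1 mice than in the 3 Control mice, and Mcm3, Insig1, Fdft1 and Gzmc lie lower.

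Genes of cholesterol synthesis stood lower with both agents as a list. Cells make sterols through these enzymes under the factor SREBP2, which is released when sterols run low. Of 23 genes tested, 21 were lower and 2 higher, 11 of them lower without overlap where 3.98% of all genes were, and the median log2 difference was -0.60 against 0.0042 over all genes. An unadjusted p under 0.05 was found for 16, and none passed over all genes. Insig1, the sterol-sensing anchor of SREBP, read 60.6, 53.3 and 63.6 CPM in Control and 43.8, 40.7, 36.8 and 43.3 CPM in minP1_PDL1 mice (log2 -0.52, SE 0.13). Fdft1, squalene synthase, read 28.1, 17.7 and 21.9 CPM against 11.4, 12.3, 6.89 and 13.0 CPM (log2 -1.05, SE 0.26). Idi1, the isomerase of isopentenyl diphosphate, read 28.7, 28.3 and 27.9 CPM against 18.3, 15.8, 10.4 and 16.2 CPM (log2 -0.89, SE 0.23). The list summed to 767, 764 and 841 CPM in Control and 640, 546, 512 and 581 CPM in minP1_PDL1 mice, so the groups did not overlap as a sum either.

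Promoters of the list were searched for the sterol element TCACCCCAC and for CCAAT, on both strands of the 250 bases before the start, in RefSeq's table for GRCm38.p6. Both motifs, and the gene shown, were chosen after the values were seen. Of 16 list genes with a promoter in the table, 1 held TCACCCCAC, as did 0.496% of 32851 promoters, and 16 held CCAAT, as did 33.8% of all. The promoter with the sterol element, in capitals, belongs to Hmgcs1, which makes HMG-CoA, the substrate of the rate-limiting step. It lies at chr13:119690101-119690350 on the plus strand and is shown as the single list member with this match, which begins 137 bases before the start.
Hmgcs1: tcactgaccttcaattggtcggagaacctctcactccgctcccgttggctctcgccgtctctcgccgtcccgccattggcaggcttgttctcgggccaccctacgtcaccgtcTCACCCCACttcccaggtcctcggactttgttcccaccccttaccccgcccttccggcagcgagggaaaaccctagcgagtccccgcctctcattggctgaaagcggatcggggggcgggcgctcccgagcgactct
Hmgcs1 itself read 41.5, 36.7 and 47.1 CPM in Control and 30.04, 32.4, 27.4 and 22.5 CPM in minP1_PDL1 mice, lower in every treated mouse by a log2 difference of -0.57 (SE 0.15, edgeR adjusted p = 0.448).

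Immediate early genes, which switch on within minutes of a stimulus or of tissue handling, stood higher. Of 24 tested, 19 were higher and 5 lower, with a median log2 difference of 0.19 against 0.0042 over all genes. For 8 of the 24 the treated mice lay higher without overlap, where 3.49% of all genes did. Fos, a subunit of the factor AP-1, read 900, 940 and 1062 CPM in Control and 1152, 1451, 1556 and 1774 CPM in minP1_PDL1 mice (log2 0.62, SE 0.12, edgeR adjusted p = 0.301). Dusp1, a phosphatase that switches off MAP kinases, read 741, 796 and 816 CPM against 945, 1144, 1116 and 1257 CPM (log2 0.51, SE 0.11). Klf6 read 1001 to 1171 CPM against 1178 to 1392 CPM (log2 0.27). No gene of the heat shock list passed: 10 of 12 were lower, with a median of -0.14.

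Neutrophil chemoattractants and growth factors stood higher in the median of the list, while their sums overlapped between the groups. The sums were 5104, 5713 and 6042 CPM in Control and 10278, 5328, 8656 and 7060 CPM in minP1_PDL1 mice. Pf4 and Ppbp, which are in this list, are platelet markers as well, and Pf4 was also a leading gene of a macrophage cluster. Of 16 genes tested, 13 were higher and 3 lower, at a median log2 difference of 0.49 against 0.0042 over all genes. For 3 of the 16 the treated mice lay higher without overlap, where 3.49% of all genes did. The median was 0.37 without the neutrophil class, 0.85 without cells of doublet score over 0.5, and between 0.23 and 0.85 over 21 settings. Csf1, which sustains macrophages, read 37.8, 40.7 and 64.3 CPM in Control and 86.4, 76.8, 78.6 and 84.6 CPM in minP1_PDL1 mice (log2 0.78, SE 0.19, edgeR adjusted p = 0.448). With no column dropped its log2 difference was -0.22, so its direction holds for the kept immune cells and not for the whole suspension. Ccl3, a chemokine of inflamed myeloid cells, read 332, 357 and 286 CPM against 519, 461, 449 and 391 CPM (log2 0.49), and 0.25 without neutrophils. Cxcl2, a ligand of CXCR2, read 1263 to 1723 CPM against 1523 to 2804 CPM and overlapped (log2 0.62).

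Class II antigen presentation stood higher in 3 of the 4 treated mice. All 12 genes tested had a positive log2 difference, with a median of 0.50 (0.27 to 0.70 over 21 settings), but none was free of overlap. H2-Eb1, a class II beta chain, read 780, 1006 and 823 CPM in Control and 650, 1379, 1569 and 2000 CPM in minP1_PDL1 mice (log2 0.69, SE 0.27). The first treated mouse lay below every Control mouse and the others above. H2-Ab1 showed the same order, at 1328, 1648 and 1374 CPM against 1096, 2127, 2625 and 2929 CPM. Ciita, the master activator of class II genes, read 16.6 to 21.4 CPM in Control and 16.0, 32.9, 46.0 and 37.4 CPM in minP1_PDL1 mice (log2 0.79). Cd74, the class II invariant chain, differed by 0.47. Nos2, the inducible nitric oxide synthase, read 9.15, 10.2 and 12.5 CPM against 29.9, 20.6, 49.2 and 35.7 CPM without overlap (log2 1.67, SE 0.53), and 0.90 over cells with a doublet score of at most 0.5.

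Cytotoxic effectors and cell cycle genes stood lower, by small amounts in the median. Of 18 cytotoxic genes tested, 17 were lower and 1 higher at a median log2 difference of -0.19, within a range of -2.79 to 0.07. With no column dropped 10 were lower and the median was -0.01, and without cells of doublet score over 0.5 it was -0.40. Gzmc, a granzyme of strongly activated lymphocytes, read 659, 785 and 920 CPM in Control and 391, 536, 344 and 188 CPM in minP1_PDL1 mice without overlap (log2 -1.11, SE 0.28, edgeR adjusted p = 0.448). Prf1 (perforin) differed by -0.36, Gzmb by -0.23, Ifng by -0.13 and Cd8a by -0.28, and these overlapped. The 15 NK cell markers tested were lower in 14 cases, with a median of -0.17, and the NK share of cells was lower in the mean as given above. Their part in the cytotoxic values was not tested. Of 35 cell cycle genes, 34 were lower, at a median of -0.28 (-0.43 to -0.14 over 21 settings) against 0.0042 over all genes. For 6 of the 35 the treated mice lay lower without overlap, where 3.98% of all genes did. The list summed to 2911, 3015 and 2943 CPM in Control and 2618, 3149, 1879 and 2372 CPM in minP1_PDL1 mice. The second treated mouse thus lay above every Control mouse in the sum.

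The genes of the treated axis itself differed little in the summed cells. Cd274 read 184, 182 and 171 CPM in Control and 173, 199, 284 and 322 CPM in minP1_PDL1 mice (log2 0.45), with the first treated mouse inside the Control range. Pdcd1 differed by -0.33, Pdcd1lg2 (PD-L2) by 0.19, Hmgn1 by -0.27 and Tlr4 by 0.32. Foxp3, the factor of regulatory T cells, differed by 0.08, Cxcl9 by -0.08, Cxcl10 by -0.06 and Cd86 by 0.11, and Ccr7 by -0.63. None of these passed. Type I interferon response genes had a median of 0.11 (25 of 34 higher), interferon gamma response genes 0.17 (18 of 25 higher), class I presentation 0.01 (8 of 14 higher), checkpoint and costimulation genes 0.08 (14 of 23 higher), and HMGN1 and TLR4 signalling genes 0.05 (14 of 22 higher). These medians depended on the cells included. With no column dropped they were 0.34 for type I interferon (31 of 34 higher), 0.27 for interferon gamma (23 of 25), 0.15 for class I (10 of 14), 0.28 for checkpoints (15 of 23) and 0.15 for HMGN1 and TLR4 signalling (14 of 22). Without the neutrophil class they were 0.05, 0.11, 0.02, 0.07 and -0.03 in the same order, and without cells of doublet score over 0.5 they were 0.23, 0.37, 0.02, -0.06 and 0.10.

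**Figure D3:**
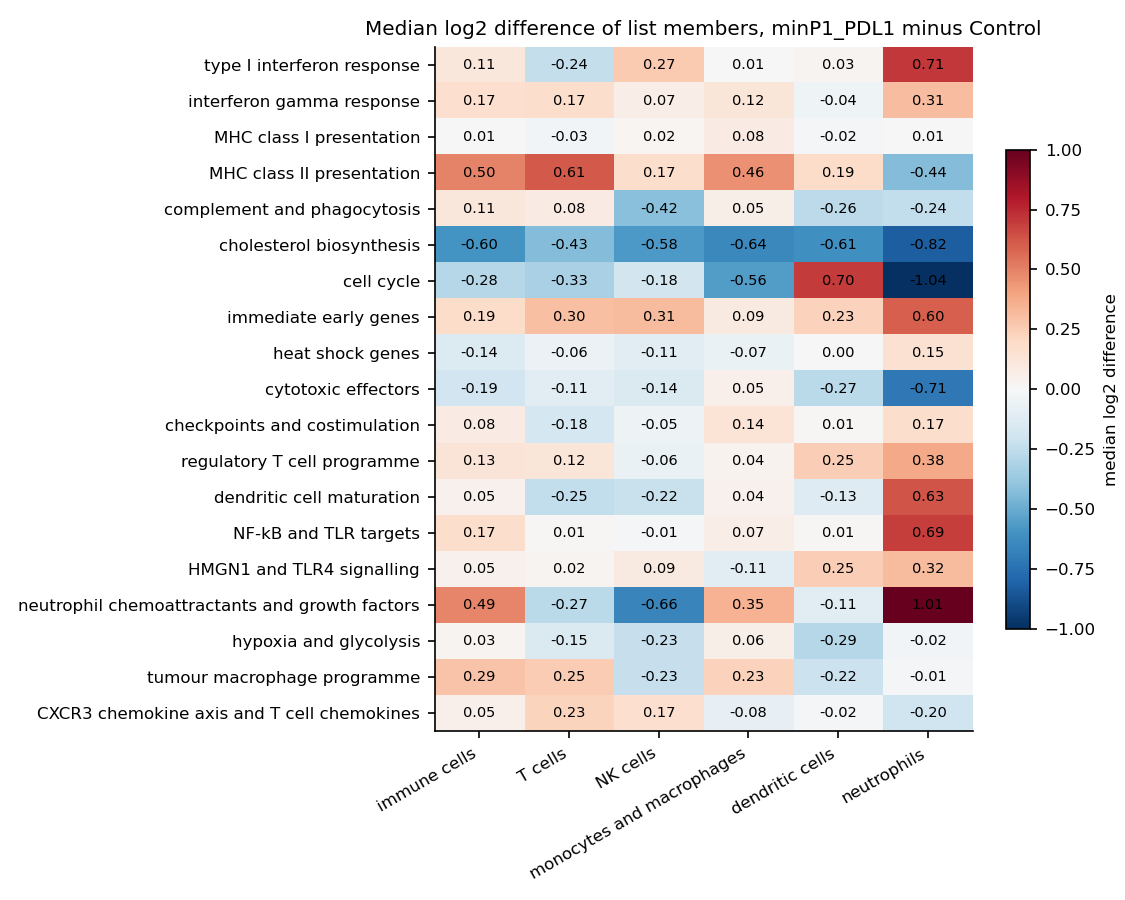
Median log2 difference (minP1_PDL1 minus Control) of the tested members of 19 gene lists in rows, in all immune cells and 5 cell classes in columns, with a colour scale from -1 to 1. Cholesterol synthesis is negative in all 6 columns, from -0.43 to -0.82, and cell cycle genes are positive in dendritic cells (0.70) and negative in the other columns.

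The mice given 1 agent allowed further comparisons. No gene passed between minP1_PDL1 and PDL1 (0%, 896 at an unadjusted p under 0.05), between minP1_PDL1 and minP1 (0%, 1261), or for a departure of both agents from the sum of the single changes (0%, 881) in edgeR with Benjamini-Hochberg adjustment. DESeq2 called 22, 95 and 33 genes in the same comparisons. These comparisons share the minP1_PDL1 mice with the main one, and the values of minP1 or PDL1 against Control share its Control mice. S100a9 differed from Control by 1.21 with the antibody alone, 0.42 with the peptide alone and 1.37 with both. Slc7a11 differed by 0.77, 0.33 and 1.24 in the same order, and its log2 difference between both agents and the antibody alone was 0.47 (SE 0.19). Slc48a1 differed by 0.30, 0.19 and 0.93 in the same order, and by 0.63 (SE 0.16, unadjusted p = 0.0015, edgeR adjusted p = 0.958) between both agents and the antibody alone. The cholesterol list had medians of -0.39 with the antibody, 0.02 with the peptide and -0.60 with both, and class II presentation 0.41, 0.12 and 0.50. For neutrophil markers the medians were 0.50, 0.15 and 0.83. Type I interferon response genes had medians of 0.25, -0.11 and 0.11 in the same order, and cytotoxic effectors -0.23, -0.19 and -0.19. In these last lists the difference with both agents was not the largest. The neutrophil share of immune cells was 9.86%, 12.3% and 12.1% in the 3 mice given the antibody alone. All 3 lay above the Control range of 3.06% to 5.47% and inside the minP1_PDL1 range of 6.67% to 13.7%. The higher share was therefore not particular to mice given both agents. The share was not tested between both agents and the antibody alone.

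T cells held the 1 gene that passed inside a class. Of 12498 genes tested in T cells, Fos rose and no other gene passed (0.008%), and 627 had an unadjusted p under 0.05. Fos read 634, 499 and 510 CPM in the T cells of Control mice and 1067, 928, 1268 and 1352 CPM in those of minP1_PDL1 mice, with no overlap and a log2 difference of 1.07 (SE 0.15, edgeR adjusted p = 0.0354). The call is not stable: without any 1 of Control mice 1, 2 and 3 or minP1_PDL1 mice 1, 3 and 4 the adjusted p lay between 0.066 and 0.519, and without cells of doublet score over 0.5 it was 0.233, while the log2 difference kept between 0.96 and 1.19. DESeq2 called 12 genes. In T cells 2.48% of genes lay higher and 3.22% lower without overlap.

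Other T cell genes of small p are given as values. Cd69, an early activation receptor that keeps lymphocytes in tissue, read 664, 510 and 669 CPM in Control and 815, 836, 1025 and 1079 CPM in minP1_PDL1 mice (log2 0.61, SE 0.13, edgeR adjusted p = 0.952). Cd4 read 93.7, 69.4 and 48.6 CPM against 164, 155, 126 and 154 CPM (log2 1.08, SE 0.25), and Arhgef6, an exchange factor for Rac and Cdc42, 50.4 to 55.1 CPM against 99.6 to 118 CPM (log2 0.97). Il15ra, the alpha chain that presents interleukin 15, read 27.7, 17.0 and 30.8 CPM against 5.58, 1.58, 6.88 and 7.82 CPM (log2 -2.22). Nr4a2, an orphan nuclear receptor induced by T cell receptor signals, was lower in each treated mouse, at 947, 590 and 541 CPM against 286, 466, 449 and 285 CPM (log2 -0.90). Of 24 immediate early genes, 20 were higher and 4 lower in T cells (median 0.30), 4 higher and 2 lower without overlap. Monocyte markers in these T cells were higher in 7 of 8 cases (median 0.55), with sums of 1200 to 1529 CPM in Control and 1601 to 2436 CPM in minP1_PDL1 mice that did not overlap, and their part in the T cell values, Fos included, was not tested. Type I interferon response genes were lower in 27 of 33 cases (median -0.24) against a median of -0.0118 over all genes. Trim46 had no read in Control T cells and 112 in minP1_PDL1, at least 35.4-fold higher by a floor of 3 reads over the group. Class II genes had a median of 0.61 in T cells, where minP1_PDL1 mouse 3 summed to 1899 CPM and the other 6 mice to 478 to 662 CPM, and in that mouse 17.3% of T cells lay in the gamma delta cluster, against 3.55 to 10.5% elsewhere.

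In NK cells no gene passed of 11816 (0%, edgeR with Benjamini-Hochberg adjustment), 748 had an unadjusted p under 0.05, DESeq2 called 28, and 2.53% lay higher and 3.45% lower without overlap. Jun, the partner of Fos in AP-1, read 235, 231 and 380 CPM in Control and 397, 635, 499 and 649 CPM in minP1_PDL1 mice (log2 0.95, SE 0.22). Fosb differed by 0.64 without overlap, and immediate early genes were higher in 21 of 24 cases (median 0.31). Cytotoxic genes differed in both directions. Gzmc read 3223, 4222 and 6014 CPM against 2712, 2575, 2202 and 1310 CPM (log2 -1.03, SE 0.24), while Ctsw, a cathepsin of cytotoxic cells, read 605, 450 and 543 CPM against 678, 709, 701 and 673 CPM (log2 0.37). Ifng in NK cells was higher in each treated mouse, at 129, 137 and 107 CPM against 164, 202, 164 and 193 CPM (log2 0.54, SE 0.19, edgeR adjusted p = 0.753). The cluster led by Gzmc and its neighbours held 16.9% ± 3.64 (SD, n = 3) of Control and 8.99% ± 2.95 (SD, n = 4) of minP1_PDL1 NK cells, and its part in the Gzmc value was not tested. Rasa3 and Rasa1, which switch off Ras, read 44.1 to 61.1 CPM against 99.2 to 128 CPM and 99.4 to 122 CPM against 159 to 224 CPM. Ccr2, a receptor for monocyte chemokines, read 447 to 535 CPM against 642 to 765 CPM (log2 0.49).

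In monocytes and macrophages no gene passed of 15000 (0%, edgeR with Benjamini-Hochberg adjustment), 1075 had an unadjusted p under 0.05, DESeq2 called 66, and 3.29% lay higher and 3.82% lower without overlap. Cell cycle genes were lower in 34 of 35 cases, 12 without overlap, with a median log2 difference of -0.56 against 0.0057 over all genes. Top2a, the topoisomerase of dividing cells, read 108, 127 and 107 CPM in Control and 74.9, 81.4, 74.5 and 68.7 CPM in minP1_PDL1 mice (log2 -0.61, SE 0.12, edgeR adjusted p = 0.425). Mki67, the proliferation marker Ki-67, read 97.8, 110 and 84.9 CPM against 45.6, 71.5, 50.9 and 65.1 CPM (log2 -0.74, SE 0.18). A macrophage cluster of shallow cells, led by the complement genes C1qc and C1qa, held 10.8% ± 0.612 (SD, n = 3) of the class in Control and 6.54% ± 1.70 (SD, n = 4) in minP1_PDL1 mice. Its part in the cell cycle values was not tested. The cluster led by Top2a and Mki67 itself was left unnamed and lay outside this class, at 2.40% of Control and 2.36% of minP1_PDL1 immune cells.

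Cholesterol genes in this class were lower in 22 of 23 cases (median -0.64), with Insig1 at 70.8, 62.0 and 79.5 CPM against 48.9, 47.8, 39.5 and 39.1 CPM. Egr1, an immediate early factor, read 146, 242 and 234 CPM against 310, 353, 406 and 300.6 CPM (log2 0.72, SE 0.17). Slc48a1 read 26.5, 38.9 and 33.9 CPM against 77.2, 54.3, 54.0 and 76.2 CPM (log2 0.98, SE 0.22), and 0.43 over cells with a doublet score of at most 0.5, and 51.1% of the class scored above that. Nos2 read 19.3, 17.5 and 14.8 CPM against 53.6, 37.7, 84.1 and 53.2 CPM (log2 1.73), and 0.78 over the same low-score cells. Cx3cr1, a receptor of patrolling monocytes and resident macrophages, was lower (log2 -1.25) and so was Hmgn1 (log2 -0.51), both without overlap. All 12 class II genes were higher at a median of 0.46, with the first treated mouse again below Control, at a sum of 7708 CPM. In that mouse 55.6% of the class lay in 1 macrophage cluster that held 15.3 to 35.8% in the other 6 mice.

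In dendritic cells the cell cycle list stood higher. Of 35 genes, 33 were higher and 2 lower, 7 of them higher without overlap, with a median log2 difference of 0.70 against 0.007 over all genes. Rrm1, which makes deoxynucleotides, read 26.5, 37.5 and 24.2 CPM in Control and 85.1, 63.2, 61.7 and 52.0 CPM in minP1_PDL1 mice (log2 1.15, SE 0.33). Mcm7 read 14.7, 25.5 and 11.9 CPM against 42.7, 95.9, 26.7 and 52.0 CPM (log2 1.64, SE 0.48). The list summed to 1692, 1651 and 1229 CPM in Control and 3127, 2659, 1426 and 2617 CPM in minP1_PDL1 mice, where mouse 3 lay inside the Control range. No gene passed of 11998 (0%, edgeR with Benjamini-Hochberg adjustment), 598 had an unadjusted p under 0.05, DESeq2 called 28, and 3.21% lay higher and 3.06% lower without overlap. The difference between this list in dendritic cells and in macrophages was not tested. Only 28 to 42 dendritic cells stood behind each mouse, plasmacytoid cells were 36.7 to 50% of them in Control and 16.7 to 45.5% in minP1_PDL1 mice, and 42.3% and 41.5% had a doublet score over 0.5. The 6 regulatory T cell markers tested here were higher in 5 cases (sums of 325 to 533 CPM and 296 to 736 CPM), and the part of any of these in the list was not tested.

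Jun had the smallest p in dendritic cells, at 246, 223 and 258 CPM in Control and 424, 659, 598 and 458 CPM in minP1_PDL1 mice (log2 1.14, SE 0.21, edgeR adjusted p = 0.568). Fos differed by 0.78 without overlap, and immediate early genes were higher in 21 of 24 cases. Acadl, a fatty acid oxidation enzyme, read 60.7 to 87.4 CPM against 99.1 to 204 CPM (log2 1.15). Lgals3, galectin-3, was lower at 1684 to 1911 CPM against 1217 to 1416 CPM (log2 -0.46), and Cd80, a costimulatory ligand of T cells, at 42.7 to 81.1 CPM against 16.4 to 23.0 CPM (log2 -1.48). Monocyte markers in dendritic cells were lower in 7 of 9 cases, with sums of 5325 to 6374 CPM in Control and 3717 to 5252 CPM in minP1_PDL1 mice that did not overlap. Macrophage markers were lower in 9 of 12 cases, with overlapping sums of 1262 to 1784 CPM and 881 to 2047 CPM. Their part in the dendritic cell values was not tested. The cholesterol list was lower in 17 of 23 cases. Ccne1, cyclin E1, had no read in Control and 266 in minP1_PDL1 dendritic cells, at least 66.8-fold higher by the same floor.

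**Figure D4:**
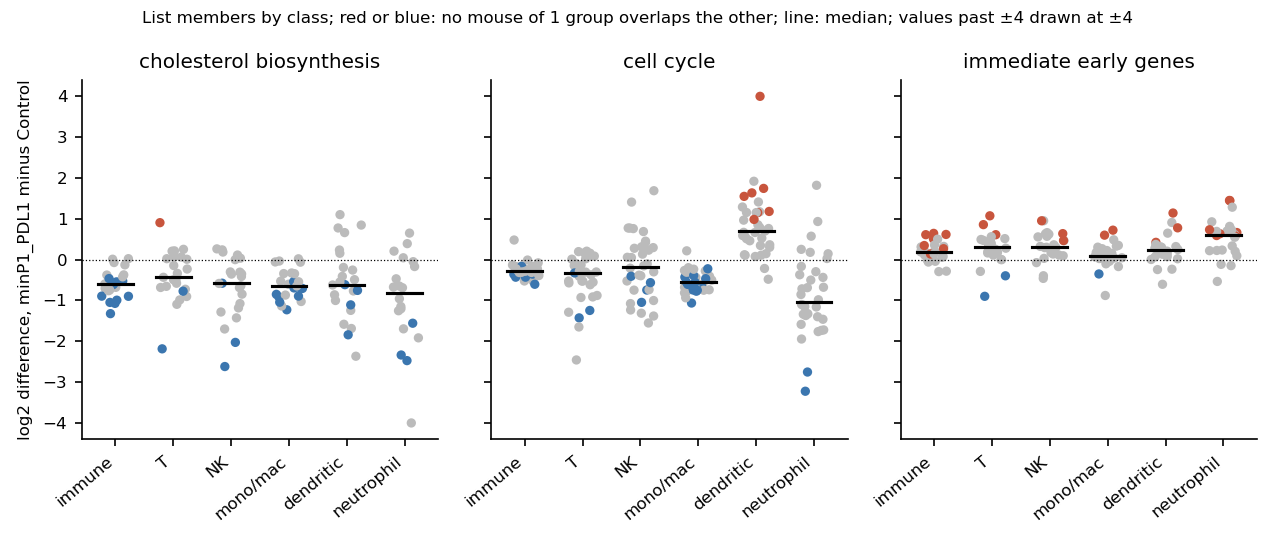
Log2 difference (minP1_PDL1 minus Control) of each tested gene of the cholesterol, cell cycle and immediate early lists in all immune cells and 5 classes, 1 point per gene, coloured where the 2 groups do not overlap, with values past 4 drawn at 4. The 35 cell cycle points lie mostly below 0 in monocytes and macrophages (34 lower) and mostly above 0 in dendritic cells (33 higher).

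Neutrophils from treated mice differed from the few neutrophils of Control mice in many genes by small p-values, and none passed. Of 10289 genes tested, 0 (0%) were called by edgeR with Benjamini-Hochberg adjustment, 826 had an unadjusted p under 0.05, and DESeq2 called 96, while 5.5% lay higher and 4.04% lower without overlap. Egr1 read 451, 455 and 424 CPM in Control and 1593, 889, 1214 and 1148 CPM in minP1_PDL1 mice (log2 1.45, SE 0.24, edgeR adjusted p = 0.108, or 0.0453 without minP1_PDL1 mouse 2). Cd274, the target of the antibody, read 388, 371 and 376 CPM against 679, 837, 1075 and 1267 CPM (log2 1.35, SE 0.27, edgeR adjusted p = 0.226). Both were higher in every treated mouse. Il1b, the inflammatory cytokine, read 6918, 5636 and 7297 CPM against 11507, 12057, 14171 and 11478 CPM (log2 0.89, SE 0.21), and Mxd1, a repressor that competes with MYC, 475 to 812 CPM against 1341 to 1903 CPM (log2 1.16). S100a9, which helped to define the class, read 3220 to 6143 CPM against 9170 to 13063 CPM.

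Lists of inflammatory response stood higher in neutrophils than over all genes, whose median was 0.0044. NF-kB and TLR targets were higher in 22 of 25 cases (median 0.69), immediate early genes in 21 of 24 (0.60), type I interferon response genes in 29 of 33 (0.71), interferon gamma response genes in 16 of 23 (0.31) and chemoattractants in 9 of 11 (1.01). The HMGN1 and TLR4 signalling list was split, with 10 genes higher and 9 lower (median 0.32, lowest log2 -4.34). Tlr4, the receptor through which HMGN1 acts, read 171, 71.4 and 95.0 CPM in Control and 273, 294, 256 and 221 CPM in minP1_PDL1 mice (log2 1.23, SE 0.35), and its adaptor Myd88 63.3 to 83.6 CPM against 160 to 259 CPM (log2 1.28). Oas3, a sensor of double-stranded RNA, read 50.7, 31.3 and 30.4 CPM against 129, 141, 103 and 97.8 CPM (log2 1.66, SE 0.52). Trim30a read 188, 279 and 334 CPM against 692, 634, 434 and 438 CPM (log2 1.04, SE 0.33). Irgm1, an interferon-induced GTPase, read 95.0, 123 and 152 CPM against 378, 488, 299 and 258 CPM (log2 1.52, SE 0.39). The groups did not overlap for these interferon genes, nor for Gbp5 (log2 1.67) or Herc6 (log2 1.55).

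The promoters of 3 of these interferon genes are shown because they hold GAAA, any 2 bases and GAAA, a core of the interferon-stimulated response element. It was searched on both strands of the 250 bases before the start and is in capitals, in RefSeq's sequence for GRCm38.p6. The motif occurred in 10 of 24 type I interferon genes with a promoter in the table (41.7%), in 9 of 19 interferon gamma genes (47.4%), and in 2.98% of 32851 promoters. The first letters of the motif lie 75 bases before the start in Oas3 (chr5:120777660-120777909, minus strand), 36 in Trim30a (chr7:104465194-104465443, minus strand, on the opposite strand to the gene), and 30 and 24 in Irgm1, where 2 matches overlap (chr11:48871421-48871670, minus strand). The table holds 2 promoters for Trim30a, of which the first is shown.
Oas3: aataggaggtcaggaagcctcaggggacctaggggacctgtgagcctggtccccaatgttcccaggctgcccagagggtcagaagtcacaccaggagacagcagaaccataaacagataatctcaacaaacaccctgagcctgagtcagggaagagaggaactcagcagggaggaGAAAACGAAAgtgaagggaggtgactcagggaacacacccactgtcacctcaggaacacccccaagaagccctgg
Trim30a: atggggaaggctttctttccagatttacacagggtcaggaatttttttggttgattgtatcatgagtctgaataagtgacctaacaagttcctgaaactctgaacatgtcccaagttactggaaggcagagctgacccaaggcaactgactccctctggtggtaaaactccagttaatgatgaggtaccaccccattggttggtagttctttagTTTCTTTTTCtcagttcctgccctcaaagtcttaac
Irgm1: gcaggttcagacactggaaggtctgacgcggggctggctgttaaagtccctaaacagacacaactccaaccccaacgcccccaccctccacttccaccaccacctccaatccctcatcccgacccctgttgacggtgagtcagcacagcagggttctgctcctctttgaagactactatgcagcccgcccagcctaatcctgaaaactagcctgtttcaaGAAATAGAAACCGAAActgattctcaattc
Herc6 and Cd274 held no such letters in this window.

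Several measures differed along with the neutrophil values. The class held 13, 23 and 25 cells in Control and 70, 34, 50 and 55 in minP1_PDL1 mice, with median depths of 28185 and 15774 reads per cell. A doublet score over 0.5 was given to 54.1% of Control and 31.1% of treated neutrophils. The 18 neutrophil markers tested summed to 10020 to 21844 CPM in Control and 27576 to 40941 CPM in treated mice, 17 of them higher. Markers of other cells were present in the class: the 14 NK markers tested summed to 2957 to 6984 CPM in Control and 1536 to 4397 CPM in treated mice (10 lower), and the 11 macrophage markers to 1169 to 1526 CPM and 484 to 2395 CPM (10 lower). Cytotoxic genes, known from lymphocytes, were lower in 17 of 18 cases. The 14 T cell markers summed to 1474 to 2550 CPM and 1299 to 2772 CPM. Clec9a, a dendritic cell marker, had 57 reads in Control and none in treated neutrophils. The part of foreign RNA, doublets and depth in the neutrophil differences was not tested.

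**Figure D5:**
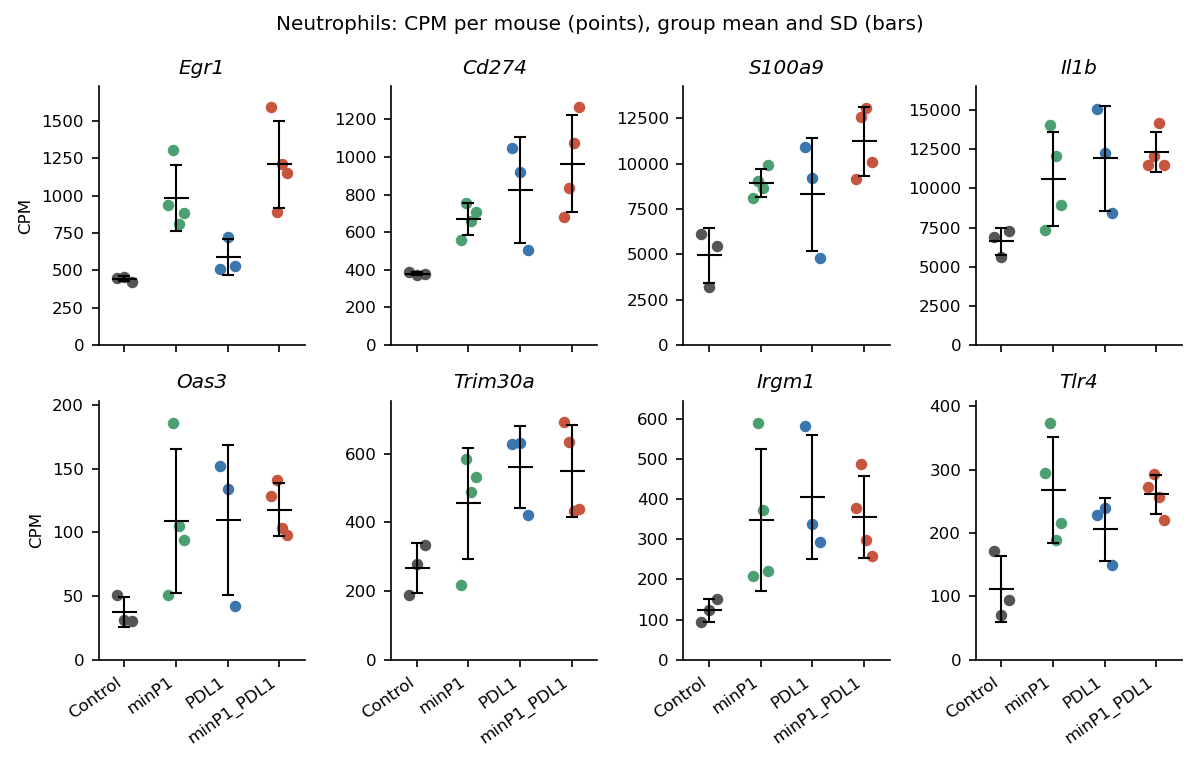
Level of 8 genes in the summed reads of neutrophils (CPM, normalised by the trimmed mean of M values), 1 point per mouse in the 4 groups, with bars for the mean and the SD. For Egr1, Cd274, S100a9, Il1b, Oas3, Trim30a, Irgm1 and Tlr4 the 4 minP1_PDL1 mice lie above the 3 Control mice, as for Cd274 from 679 to 1267 CPM against 371 to 388 CPM.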

How the data were processed

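The values the authors deposited are counts of reads for 22836 genes in 8262 cell columns, not collapsed by molecular identifier. Per the submitters' processing notes, the tools named include cutadapt 2.10, Bowtie2 2.3.4.1 and Seurat 2.3.4 with build mm10 (GRCm38), and mice were told apart by hashtag. Columns called doublet (141) or without a hashtag (6) were not used. Reads copied in amplification are not independent molecules, so read floors cover counting error only.

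Reads were summed per mouse, and per mouse and class where a class had at least 10 cells. They were tested with edgeR 4.0.16 (quasi-likelihood, trimmed mean of M values, filterByExpr) over all 14 mice, with Benjamini-Hochberg adjustment and a threshold of 0.05. The standard error is the log2 difference divided by the root of F. CPM of marker sums before and after the rule uses plain totals. Cells were clustered with scanpy 1.11.5 (2000 variable genes, 30 components, 20 neighbours, Leiden resolution 1), and a cluster was named where its top 50 genes held at least 3 markers. A doublet score from simulated doublets was computed but removed no cell in the main tests. It exceeded 0.5 in 27.9% of kept cells and in 75.0% of simulated doublets. Shares were compared by two-sided exact permutation. Alternatives used DESeq2 1.42.0 and limma 3.58.1 (pseudocount 0.1 CP10k).

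The genes named are the 8 of smallest p in each direction in immune cells, 5 in each class, 3 of each described list, and fixed genes of the PD-1 and HMGN1 axis. Hmgcs1 was chosen after its values were seen. The rule, gene lists and tests were chosen with earlier results of these data known. On simulated counts for minP1_PDL1 against Control in immune cells (17790 genes, 200 changed), the test recovered 68% of genes changed by a log2 of 1. It recovered 94% of those changed by 2, with 3 false calls. The changed genes were drawn only from those with a mean over 5 CPM. Counts came from a negative binomial model with the spread fitted to these data. The recovery therefore does not cover lower genes or the cell classes.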

Additional observations from a re-analysis of the deposited data

Results flagged for a closer look

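Within the 4 minP1_PDL1 mice, 3 of 49 results tested had a sample whose gap to its nearest neighbour, divided by the group's range, exceeded Dixon's critical value of 0.829, and chance gives about 1 in 20. The NK share had a ratio of 0.831, with the first mouse at 12.9% and the others at 18.6 to 19.8%. For genes the ratio was taken on the log2 of CPM plus 1. Slc7a11 had a ratio of 0.845, with the second mouse at 47.5 CPM and the others at 51.3 to 52.0 CPM. Col5a2 had a ratio of 1.000, with 1 read in the second mouse and 0 in the others.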

How the results depend on the processing

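DESeq2 called more genes than edgeR in each comparison: 85 rather than 0 for all immune cells, 96 for neutrophils, 66 for monocytes and macrophages, 28 each for dendritic cells and for NK cells, 12 rather than 1 for T cells, and 22, 95 and 33 against PDL1, against minP1 and for additivity. DESeq2 was run without filterByExpr and so gave a p-value for more genes, 22679 against 17790 in immune cells and 20982 against 12498 in T cells. It applies its own filter on low counts before the adjustment. Without filterByExpr, edgeR called 0 of 22811 genes in immune cells. The cause of the difference in calls was not tested. In immune cells, limma with every cell equal called 27 of 9298 genes. A filter at 10 CPM called 1 (S100a9), a mitochondrial limit of 10% called 1 (S100a9), and a fit of the Control and minP1_PDL1 mice alone called 1 (Slc7a11). Leaving out 1 mouse gave 0 to 1 calls in immune cells (1, S100a9, without minP1_PDL1 mouse 2), 0 to 1 in T cells, 0 to 3 in monocytes and macrophages (3 without minP1_PDL1 mouse 2), 0 to 1 in neutrophils (1, Egr1, without the same mouse), and 0 to 2 against minP1 (2 without minP1 mouse 3). The T cell call was lost (0) without cells of doublet score over 0.5, an alternative chosen after seeing the data. With the replicate number as a block, the T cell call was lost as well (0 genes, Fos log2 1.04, edgeR adjusted p = 0.168), and the block gave 0 calls elsewhere. Same-numbered mice did not deviate together (r = -0.134, -0.25 and -0.065 over 5000 genes), so the numbers are not treated as pairs. The lower dropped share with both agents kept its direction in each leave-one-out value, from -3.54 to -6.41 percentage points. The low-doublet alternative could not be run in neutrophils, since 1 Control mouse kept at least 10 cells. Shallow classes limit the depth, above all the 13 to 25 neutrophils of each Control mouse.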
